A study of Mus musculus with 14 samples.

Results

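The genes of the proteasome were followed by RNA-seq in the mouse dorsal hippocampus. Members were taken by symbol: every row of both count tables whose gene name starts with Psma, Psmb, Psmc, Psmd, Psme, Psmf or Psmg and a number, leaving out the inducible catalytic subunits Psmb8 and Psmb9. The rule found 50 of the 24912 genes that the count tables share. Among them 46 code for a subunit, an activator, an inhibitor or an assembly chaperone of the proteasome. The other 4 do not belong to the complex, namely the pseudogenes Psmb5-ps, Psmb7-ps2 and Psme2b-ps and the gene Psmc3ip, whose product works in meiotic recombination.

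All mice were males of the C57BL6 strain (C57BL6/J background in the paper) aged 8 months, either WT or THY-Tau22 (TAU). This line is studied as heterozygotes and expresses a mutated human Tau under the neuron-specific Thy1.2 promoter. The untrained (basal) experiment held 3 WT and 2 TAU libraries of mice kept in their home cage. The learning experiment held 3 WT VEH_HC libraries (saline, home cage), 2 WT VEH libraries (saline, trained in the Morris water maze), 2 TAU VEH libraries (the carbon nanosphere carrier CSP, trained) and 2 TAU MOL libraries (CSP-TTK21, the same carrier loaded with an activator of the histone acetyltransferases CBP and p300, trained). The WT and TAU trained groups thus differ in genotype and in vehicle, and these cannot be told apart. No untrained TAU mice stood beside the trained ones in the learning experiment, and libraries of this experiment that the authors left out for their divergent global expression were not analysed here.

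The proteasome degrades proteins that carry a ubiquitin chain. Its 20S core is a barrel of outer alpha rings and inner beta rings, and the active sites sit on Psmb6 (beta1), Psmb7 (beta2) and Psmb5 (beta5), with Psmb10 as the inducible form of beta2. The 19S particle caps the barrel: its Psmc ATPases unfold the substrate, and its Psmd subunits bind and strip ubiquitin. Other caps are the PA28 activators (Psme1 with Psme2, or Psme3 alone) and PA200 (Psme4), while Psmf1 (PI31) is known as an inhibitor in vitro. In neurons the proteasome also turns over synaptic proteins, and Tau is among its known substrates.

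The learning libraries held 24693713 to 52180305 counts each, the untrained ones 28639121 to 37681155. The 46 genes with a role took from 63672 to 121427 counts per library, so counting error was small for the abundant members. Thy1, whose promoter drives the transgene, was at 1805 to 2352 CPM (counts scaled to a common library total, by TMM factors) in the TAU and 786 to 913 CPM in the WT libraries, and each library thus matched its genotype label. This does not check the labels for training or treatment. Neuron markers were present in every library (7 genes, summed 11446 to 19330 CPM). Markers of the choroid plexus, a tissue next to the dorsal hippocampus, varied widely: 14 of 14 were tested, none was at 0 in either experiment, and their summed level was 1594 to 2457 CPM in WT VEH, 79.8 to 238 CPM in WT VEH_HC, 241 to 288 CPM in TAU VEH and 718 to 785 CPM in TAU MOL. These sums did not overlap between the groups of the learning experiment. A covariate made from these markers therefore largely follows the group there, and cannot separate this tissue from the group. The GC content of genes was also related to how a library deviated from the mean of its experiment, with Spearman's rho over all genes from 0.086 to 0.46 in the WT and from -0.62 to -0.40 in the TAU libraries of the learning experiment. In the untrained experiment, TAU replicate 2 (rho -0.60) stood apart from TAU replicate 1 (0.48) and the 3 WT libraries (0.067 to 0.32).

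The level of each member, expressed per length as CPM per kilobase of exon, spread over a wide range. Among the 44 genes left without the tissue-specific forms Psma8 and Psmb11, the median over the 9 learning libraries ran from 3.50 for Psme4 to 108 for Psmb5. The 31 constitutive subunits of the core and of the 19S particle all lay between 9.71 and 108 CPM per kilobase, with a median of 22.1. The chaperones, which bind only during assembly, lay lower: Psmd5, Psmd9 and Psmd10, which help to build the base of the 19S particle, at 4.55 to 8.56 CPM per kilobase, and Psmg1 to Psmg4, which build the core, at 5.18 to 8.46. Psmf1 was at 5.07 CPM per kilobase.

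Psmb5 led the order in both experiments, followed by Psmb4 (69.5 CPM per kilobase in the learning libraries), Psmc5 (65.1), Psmb1 (59.6), Psmb7 (57.1) and Psmc1 (52.5), and these 6 ranked alike in the untrained experiment. Psmb5 ranged from 93.4 to 145 CPM per kilobase over the learning libraries, above the highest Psmb4 library (84.0). The ranges of Psmb4, Psmc5, Psmb1 and Psmb7 overlapped their neighbours, and their order is therefore not settled by these libraries. Of the catalytic subunits, Psmb6 had a median of 29.1 and the inducible Psmb10 of 16.3 CPM per kilobase. Within the activators Psme3, the nuclear PA28 form, had 40.9 CPM per kilobase against 12.1 for Psme1, 5.69 for Psme2 and 3.50 for Psme4. The annotated exon length sets this scale, so a long rarely used exon lowers a value.

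**Figure D1:**
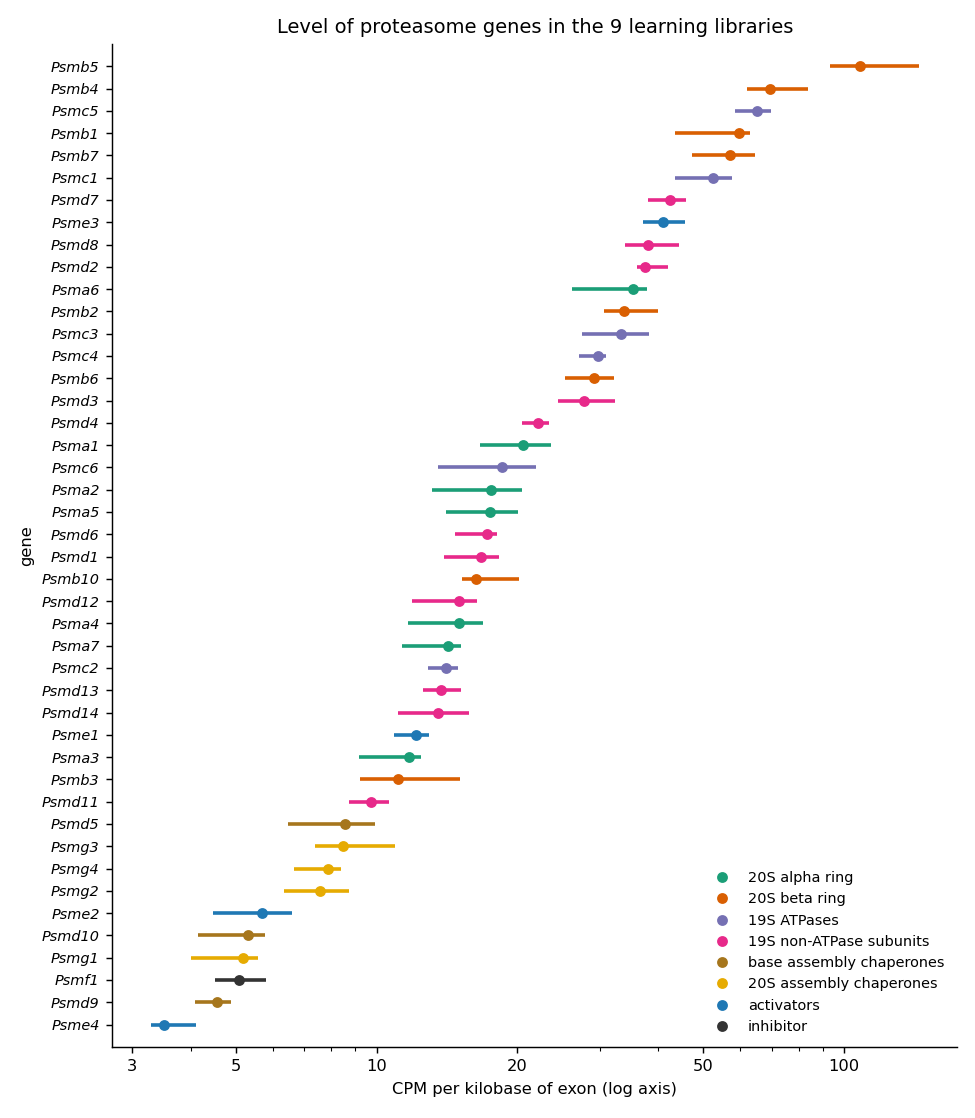
Level of 44 proteasome genes in the 9 learning libraries, as CPM per kilobase of exon on a log axis. Points give the median, lines run from the lowest to the highest library, and colours mark the role in the complex. Psmb5 is highest with a median of 108, Psme4 lowest with 3.50, and all assembly chaperones lie below 9.

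Variation between libraries also differed among members. Among the same 44 genes, over the 9 learning libraries, the coefficient of variation of the CPM was lowest for the ubiquitin receptor Psmd4 (4.01%) and highest for the ATPase Psmc6 (16.1%) and the beta3 subunit Psmb3 (15.4%), all groups pooled. Forms made elsewhere were close to absent: Psma8, the testis form of alpha4, had 1 to 13 counts per library and Psmb11, the thymus form of beta5, 15 to 62 counts. Psma8 passed the low-count filter of the untrained experiment only. The 3 pseudogenes, with 0 to 8 counts per library, did not pass it in either. Tests thus covered 47 of the 50 members in the untrained and 46 in the learning experiment. A gene was called when edgeR's quasi-likelihood test put its adjusted p below 0.05 and its log2 fold change was larger than 0.2 in either direction. The study's text speaks of the learning samples as mice, while the labels do not say that each library is a separate mouse, and p-values measure the spread between libraries.

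In untrained mice the question was whether Tau pathology alone went with altered proteasome mRNA. No member was called, 0 of 47, where 0.0245% of the 16324 genes tested were. At an unadjusted p under 0.05 the count was also 0, against 4.92% of all genes, and DESeq2 called 0 members and 0.167% of all genes. The median log2 fold change (TAU minus WT) of the tested members was -0.05, against -0.01 for all genes, and 10 of 47 lay above 0, where 48.4% of all genes did. The median rested on WT replicate 2, in which 42 of 44 members lay above their own mean, and without this library it was 0.00035. Groups did not overlap for 7 members that were lower in TAU and for 1 that was higher, against 9.49% and 9.01% of all genes.

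The beta ring had the lowest median of the subunit groups of the proteasome in untrained mice, with a log2 fold change of -0.18 over 9 genes and all but Psmb11 below 0. Without Psmb11 the median of the 8 was -0.19, and -0.09 with the GC and length correction. Alpha ring, ATPases and non-ATPase subunits had medians of -0.03, -0.05 and -0.05. With the correction the base chaperones Psmd5, Psmd9 and Psmd10 had -0.09, -0.12 and -0.12. Of the 9 beta ring genes 0 were lower in TAU without overlap, against 9.49% of all genes. TAU replicate 1 lay within the WT range for all of them but Psmb7 and Psmb11. TAU replicate 2 lay below TAU replicate 1 for all but Psmb7. Psmb3 was at 57.5, 56.9 and 47.7 CPM in WT and at 49.9 and 37.5 CPM in TAU, so the groups overlapped. Its log2 fold change was -0.30 with a 95% interval from -0.64 to 0.03 (edgeR, adjusted p = 0.90). The core assembly chaperone Psmg3 had 10.2, 11.3 and 9.96 CPM in WT and 9.18 and 7.88 CPM in TAU, without overlap, and a log2 fold change of -0.30 (interval -0.62 to 0.03, edgeR adjusted p = 0.90). Psmg3, at 56.6% GC, had -0.15 and Psmb3 -0.25 with the GC and length correction. Psmb11, at under 1 CPM on average in either genotype, had 0.60 (interval -0.07 to 1.27, edgeR adjusted p = 0.90) at counts too low to set beside the other members.

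The catalytic subunits had log2 fold changes of -0.25 for Psmb5, -0.18 for Psmb6, -0.12 for Psmb7 and -0.20 for Psmb10 in untrained TAU mice. Each interval held 0, and TAU replicate 1 lay within the WT range for all of them but Psmb7. The GC and length correction gave -0.12, -0.11, -0.06 and -0.07. Psme1, Psme2 and Psme3 lay at -0.07, -0.03 and -0.06, and Psmf1 at 0.06. The activator Psme4 was at 30.7, 29.4 and 32.9 CPM in WT and at 29.9 and 47.2 CPM in TAU, with a log2 fold change of 0.31 (interval -0.07 to 0.70, edgeR adjusted p = 0.90). TAU replicate 2 lay above all other libraries and TAU replicate 1 within the WT range. The exons of Psme4 hold 42.3% GC, and with the GC and length correction the log2 fold change was 0.16 (adjusted p = 0.74). Over 44 members the median half-width of the 95% interval was 0.27 on the log2 scale, so shifts smaller than this were mostly not detectable with 3 against 2 libraries. These intervals are not adjusted for the number of genes, so a call took a larger shift still. Cell type markers stood beside these values: none was called, none was at 0, and the summed oligodendrocyte markers (5 genes) were at 5613 to 6074 CPM in TAU and 6136 to 10060.2 CPM in WT. Astrocyte markers (6 genes) were at 2899 to 3163 CPM in TAU and 2563 to 2625 CPM in WT, without overlap. Microglia markers (9 genes) were at 589 to 616 CPM and 521 to 543 CPM, also without overlap. Choroid plexus markers (14 genes) were at 405 to 1326 CPM in TAU and 274 to 442 CPM in WT. Their part in the values of the members was not tested beyond the choroid plexus covariate, under which the beta ring without Psmb11 had a median of -0.10.

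Spatial training was examined in WT mice (WT VEH against WT VEH_HC). More members lay above 0 than among genes at large, but 1 alone was called: Psmd5 was higher in trained mice and none was lower, 1 of 46 against a background of 8.4% called in either direction and 5.35% called higher. The count depended on the setting: a filter of at least 1 count called 10 members, against 10.4% of all genes, and the replicate block 18, against 17.8%. The median log2 fold change of the members was 0.17, against 0.00 for all genes, and 37 of 46 were above 0, against 49.6% of all genes. The median was 0.081 with the GC and length correction, -0.089 with the choroid plexus covariate and 0.11 without WT VEH replicate 2. At an unadjusted p under 0.05, 20 members were higher and 2 lower, where all genes gave 15.4% and 12.4%. The groups did not overlap for 23 members higher and 5 lower, against 23% and 20.8% of all genes.

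Psmd5 (S5b), a chaperone that binds the ATPase Psmc2 during assembly of the 19S base, was at 29.3 and 31.1 CPM in WT VEH and at 22.1, 23.8 and 26.4 CPM in WT VEH_HC. Both trained libraries lay above all home-cage libraries. The log2 fold change was 0.33 ± 0.08 (SE) with an adjusted p of 0.037 (edgeR). The call rested on few libraries: it was lost without either WT VEH library (adjusted p = 0.22 and 0.17), without WT VEH_HC replicate 1 (0.091) or 2 (0.057), and when any 1 of the TAU libraries, which enter the shared estimate of spread, was left out (0.055 to 0.058). It was also lost in a fit on the 2 groups alone (0.084) and with a loess correction for GC and length (0.24, adjusted p = 0.093). With the choroid plexus score as a covariate the log2 fold change was -0.0048.

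By role, the medians of the core, the 19S particle and the assembly chaperones lay above 0 after training and that of the activators did not. Alpha ring and beta ring genes each had a median log2 fold change of 0.22, with 7 of 7 and 8 of 9 genes above 0. ATPases and non-ATPase subunits each had 0.16, the base chaperones 0.26 and the Psmg chaperones 0.21. With the GC and length correction these were 0.05, 0.07, 0.15 and 0.17. The beta ring gene below 0 was Psmb11, and without it the median of the 8 others was 0.23, 0.18 with the GC and length correction and -0.09 with the choroid plexus covariate. For the alpha ring these settings gave 0.08 and -0.33. Examples that missed the call were the alpha subunit Psma6 at 0.33 (edgeR adjusted p = 0.062), the non-ATPase subunit Psmd13 at 0.21 (0.059) and the deubiquitinase Psmd14, which cuts ubiquitin chains off the substrate, at 0.25 (0.072). Corrected for GC and length, Psmd13 had 0.23 and was the 1 member called (0.049; 4.42% of all genes), Psma6 had 0.22 (0.13) and Psmd14 0.0045 (0.97).

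Psmb5 had a log2 fold change of 0.23 in trained WT mice, Psmb6 of 0.14, Psmb7 of 0.22 and Psmb10 of 0.12, none of them called (edgeR, adjusted p = 0.13 for Psmb5). In the other direction, Psmf1 was at 30.8 and 32.7 CPM in WT VEH and at 37.3, 35.3 and 36.6 CPM in WT VEH_HC. Its log2 fold change was -0.20 (interval -0.35 to -0.04), and the groups did not overlap, but it was not called. Of the activators, Psme2 had 0.34, Psme1 -0.05, Psme3 -0.11 and Psme4 -0.01. None of them was called, and the difference between Psme2 and its ring partner Psme1 was not tested. The median over the 4 activators was -0.03.

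The home-cage libraries differed among themselves. Over 44 members the median deviation from each gene's mean was -0.10 and -0.17 in WT VEH_HC replicates 1 and 2 but 0.00 in replicate 3, and 0.05 and 0.08 in WT VEH. Summed over the members with a role, the level was 2152, 2107 and 2294 CPM in WT VEH_HC and 2297 and 2422 CPM in WT VEH, so that home-cage replicate 3 came next to the lower trained library. Without WT VEH_HC replicate 3, 15 members were called, all higher, against 10.7% of all genes called higher, and they included Psma1 to Psma4, Psma6, Psma7, Psmb1, Psmb7 and Psmd5. Leaving out any other library of the learning experiment gave 0 calls. Choroid plexus markers moved with this comparison, 14 of 14 called higher in WT VEH, and home-cage replicate 3 had more of them (238 CPM) than replicates 1 and 2. Microglia markers (1 of 9 called higher) summed to 477 to 494 CPM in WT VEH and 404 to 469 CPM in WT VEH_HC. Astrocyte markers (0 of 6 called) summed to 2144 to 2157 CPM and 1972 to 2103 CPM. With the choroid plexus score as a covariate the median of the members was -0.09 and no gene of the 16820 was called, and the part of this tissue in the result was not tested further. In bulk samples, more cells of a type and more RNA per cell cannot be told apart.

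**Figure D2:**
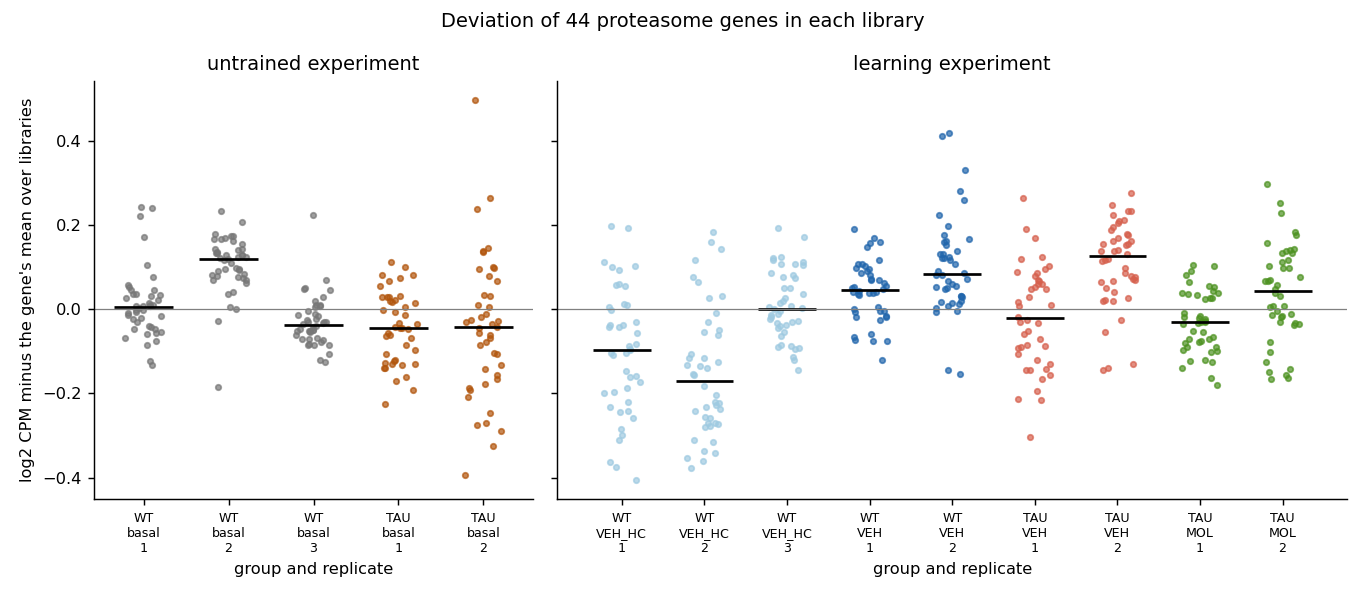
Deviation of 44 proteasome genes in each library, as log2 CPM minus the gene's mean over the libraries of the same experiment. Each point is a gene, the black bar is the median of the library, and colours mark the groups. The medians of WT VEH_HC replicates 1 and 2 are -0.10 and -0.17, that of replicate 3 is 0.00, and those of WT VEH are 0.05 and 0.08.

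Trained TAU VEH mice were then compared with trained WT VEH mice. Of the 46 members tested 2 were called, Psme4 higher and Psmb5 lower, where 14.4% of all genes were called (3.61% higher and 10.8% lower). The median log2 fold change of the members was -0.02, against 0.00 for all genes. Of the members 21 lay above 0, against 50.7% of all genes. The sign of this median was not stable: it was 0.010 without WT VEH replicate 2, 0.050 without TAU VEH replicate 1 and 0.17 with the choroid plexus covariate. At an unadjusted p under 0.05, 1 member was higher and 5 were lower, against 10.4% and 16.7% of all genes. The groups did not overlap for 11 members higher and 11 lower, against 28.5% and 29.4% of all genes.

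Psmb5, the subunit with the chymotrypsin-like site, was at 106 and 134 CPM in WT VEH and at 86.1 and 98.3 CPM in TAU VEH. All TAU libraries lay below all trained WT libraries, and the 3 home-cage WT libraries (99.9, 105 and 100.3 CPM) lay between them. The log2 fold change was -0.38 ± 0.10 (SE), with an adjusted p of 0.027 (edgeR). WT VEH replicate 2 carried much of the difference: without it the log2 fold change was -0.21 and the adjusted p 0.27. The call was also lost without TAU VEH replicate 1 (-0.29, adjusted p = 0.24) and with library size alone (-0.23, adjusted p = 0.13). With the GC and length correction it was -0.17 with an adjusted p of 0.34, and the exons of Psmb5 are rich in GC (55.9%). Its exons share 109 bases with those of the microRNA gene Mir686 on the same strand, and Psmb5-ps is a related copy, so reads that could not be assigned to Psmb5 alone would be missing from its count.

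Psme4, which caps the core as PA200, was at 29.2 and 27.5 CPM in WT VEH and at 34.4 and 34.1 CPM in TAU VEH. The home-cage WT libraries, at 28.4, 29.4 and 27.7 CPM, matched the trained WT libraries, and no WT library of the learning experiment reached the TAU level. The log2 fold change was 0.27 ± 0.07 (SE), with an adjusted p of 0.024 (edgeR). The call was lost whichever 1 library of these 2 groups was left out (adjusted p from 0.056 to 0.17) and with the GC and length correction (0.11, adjusted p = 0.42).

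The sequences upstream of the 3 called members are shown because the genes moved in different comparisons and directions. They run from 250 bases before to 50 bases after the start of the RefSeq gene (RefSeq table of build GRCm38.p6). Each was found once in the mm9 genome, at chr14:55236783-55237082 on the minus strand for Psmb5, at chr11:30671525-30671824 on the plus strand for Psme4 and at chr2:34726433-34726732 on the minus strand for Psmd5, all read 5′ to 3′ on the strand of the gene. Capitals mark matches on either strand to TGACNNNGC (the core of the antioxidant response element bound by Nfe2l1 and Nfe2l2), CCGGAAG (an ETS-type motif) and GGGCGG (an Sp1-type GC box); CCAAT was searched too.
Psmb5: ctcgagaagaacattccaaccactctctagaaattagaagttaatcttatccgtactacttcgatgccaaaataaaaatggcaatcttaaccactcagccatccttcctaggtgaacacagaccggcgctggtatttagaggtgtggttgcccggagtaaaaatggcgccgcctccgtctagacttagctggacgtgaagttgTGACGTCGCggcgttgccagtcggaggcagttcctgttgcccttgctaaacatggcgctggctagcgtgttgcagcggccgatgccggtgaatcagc
Psme4: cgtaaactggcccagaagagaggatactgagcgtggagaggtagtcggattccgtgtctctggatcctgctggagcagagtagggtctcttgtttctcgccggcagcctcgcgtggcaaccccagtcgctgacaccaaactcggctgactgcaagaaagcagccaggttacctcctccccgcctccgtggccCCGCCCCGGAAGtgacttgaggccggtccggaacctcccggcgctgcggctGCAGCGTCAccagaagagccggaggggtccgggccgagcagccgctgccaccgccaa
Psmd5: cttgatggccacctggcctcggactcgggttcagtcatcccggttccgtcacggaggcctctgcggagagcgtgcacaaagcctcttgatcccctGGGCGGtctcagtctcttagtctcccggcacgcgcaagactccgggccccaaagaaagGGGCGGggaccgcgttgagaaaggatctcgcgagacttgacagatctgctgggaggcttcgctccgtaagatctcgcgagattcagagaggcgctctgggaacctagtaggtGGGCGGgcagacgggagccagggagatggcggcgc

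In the promoter of Psmb5, TGACNNNGC began 47 bases before the start. In that of Psme4 it began 7 bases before the start on the reverse strand, and CCGGAAG at 53 bases and a GC box at 58 bases before the start, with overlapping letters. That of Psmd5 held 3 GC boxes. A promoter was at hand for 38 members. TGACNNNGC was in 6 of them (15.8%: Psmb5, Psmb6, Psmc6, Psmd9, Psmd12 and Psme4) and in 14.0% of the 27025 genes with a promoter in the table. CCGGAAG was in 14 members (36.8%) against 9.93% of all genes, GGGCGG in 22 (57.9%) against 38.2% and CCAAT in 13 (34.2%) against 41.1%. These shares describe letters in a window and not sites in use, and the fold changes of the genes that hold TGACNNNGC included both called directions.

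Most other members of the beta ring had log2 fold changes on the same side as Psmb5 in TAU VEH mice, and none of them was called. Over the 9 genes the median log2 fold change was -0.14, and all but Psmb11, which is close to absent, were below 0. Of the 9, 3 were lower and 1 higher without overlap, against 29.4% and 28.5% of all genes. Without Psmb11 the median of the 8 was -0.15, and with the GC and length correction it was -0.12, with 8 of 8 below 0. With library size alone the median was -0.0055 with 4 of 8 below 0, under a scaling that moved the median of all genes to 0.15. With the choroid plexus covariate it was -0.0066, also with 4 of 8 below 0. Psmb3 was at 29.0 and 34.8 CPM in WT VEH and at 21.2 and 27.7 CPM in TAU VEH, without overlap, with a log2 fold change of -0.39 (interval -0.69 to -0.10, edgeR adjusted p = 0.079). DESeq2, a filter of at least 1 count, the replicate block and a fit on the 2 groups alone called it. Psmb10 had 22.2 and 25.6 CPM against 19.4 and 20.6 CPM, also without overlap, and a log2 fold change of -0.26 (interval -0.46 to -0.06, edgeR adjusted p = 0.087). After correction for GC and length, Psmb3 had -0.39 (adjusted p = 0.13) and Psmb10, at 56.5% GC, -0.03 (0.87). Psmb6 and Psmb7 gave -0.11 and -0.01, with intervals from -0.34 to 0.11 and from -0.27 to 0.25. The differences between the catalytic subunits were not tested.

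The alpha ring, with which the beta ring is built at equal numbers, had a median log2 fold change of 0.07 in TAU VEH mice, and 5 of its 7 tested genes were above 0. The GC and length correction took the median of the alpha ring to -0.04, with 5 of 7 genes below 0, the sign of the beta ring. ATPases, non-ATPase subunits and base chaperones had medians of 0.04, 0.02 and 0.03, and of 0.02, 0.0036 and -0.11 with the correction. The Psmg chaperones had -0.12 with all 4 below 0, and -0.05 with 2 of 4 below 0 with the correction. Beside Psme4, the activators Psme1, Psme2 and Psme3 gave -0.05, -0.10 and -0.13 and Psmf1 gave -0.03, each with an interval that held 0. Over 44 members the median half-width of the interval was 0.20 on the log2 scale.

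**Figure D3:**
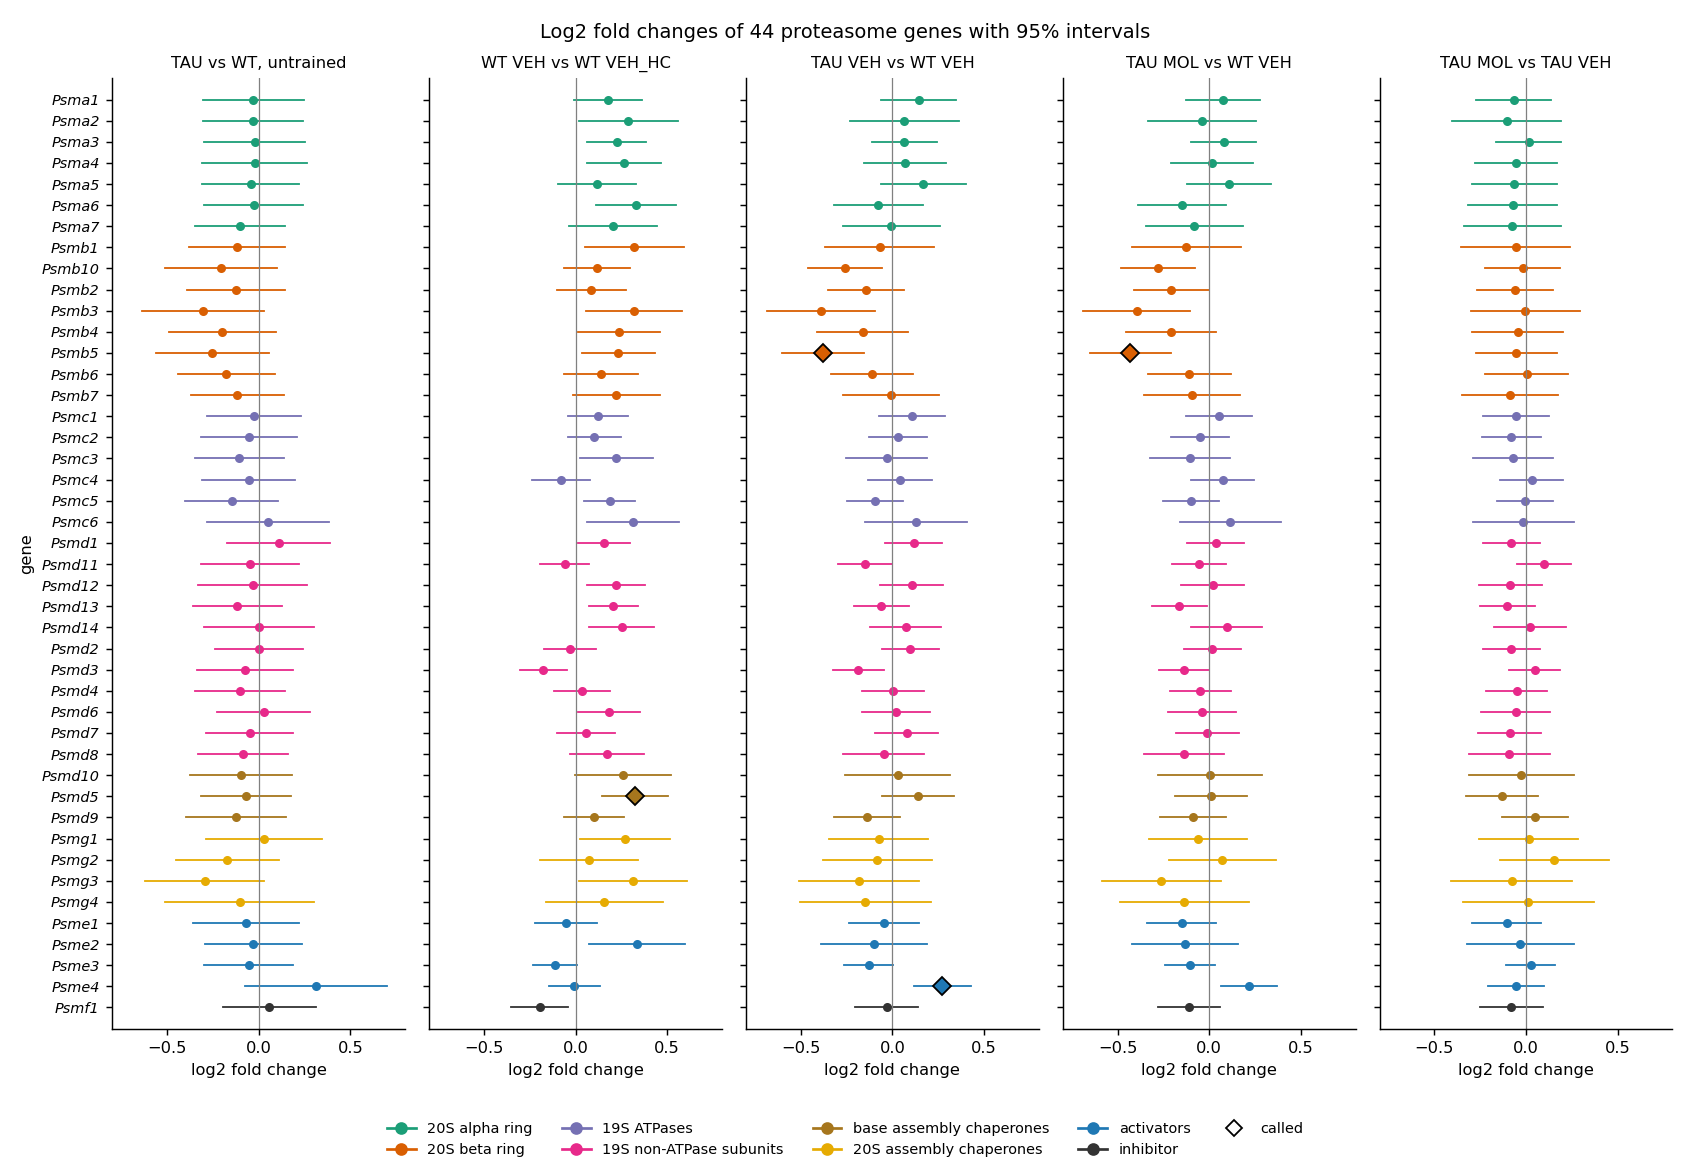
Log2 fold changes of 44 proteasome genes in the 5 comparisons, first group minus second, with 95% intervals from edgeR. Colours mark the role, and large diamonds mark the called genes: Psmd5 (0.33) for training, Psmb5 (-0.38) and Psme4 (0.27) in TAU VEH and Psmb5 (-0.43) in TAU MOL against WT VEH. The 8 beta ring genes lie left of 0 in the 3 comparisons of TAU with WT. Those of TAU VEH and TAU MOL share the same WT VEH libraries. With library size alone, which moved the median of all genes to 0.15, 4 of them lie on either side of 0 in TAU VEH. With the choroid plexus covariate 4 of the 8 genes lie below 0 in TAU VEH.

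Cell type markers moved with the genotype in trained mice. All 14 choroid plexus markers were called lower in TAU VEH, and 4 of 7 neuron markers were called lower, with a summed level of 13360 to 13753 CPM against 17952 to 17998 CPM. Of 6 astrocyte markers 2 were called higher, and microglia had 1 of 9 lower. None of these markers was at 0, and their part in the calls of Psmb5 and Psme4 was not tested beyond the choroid plexus covariate, under which Psmb5 had -0.58 (adjusted p = 0.35), Psme4 0.22 (adjusted p = 0.53) and no gene at all was called. Scaling by library size alone moved the median of all genes to 0.15 (0.12 in TAU MOL against WT VEH) and that of the members to 0.13, and called 7 members, all higher, where 15.3% of all genes were called higher.

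In the comparisons of TAU with WT, log2 fold changes were lower for members richer in GC. Exon GC content ran from 36.2% in Psmc6 to 56.6% in Psmg3, and Spearman's rho between GC content and log2 fold change over the 45 tested members with a role was -0.57 for TAU VEH against WT VEH. The same measure over all genes was -0.52. In TAU MOL against WT VEH it was -0.64 over the members and -0.47 over all genes, and in untrained mice -0.62 over 46 members and -0.30. The untrained TAU libraries went opposite ways, since rho between GC content and the deviation from each gene's mean was 0.63 over the members in replicate 1 and -0.76 in replicate 2. These genes share the same libraries and are not independent, so the coefficients are descriptions. After the GC and length correction the coefficients of the members were 0.32, 0.17 and 0.12. Psmd11, a scaffold of the 19S lid, was then the only member called in TAU VEH against WT VEH, lower, where 3.01% of all genes were called. In TAU MOL against WT VEH 0 members and 0.125% of all genes were called.

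**Figure D4:**
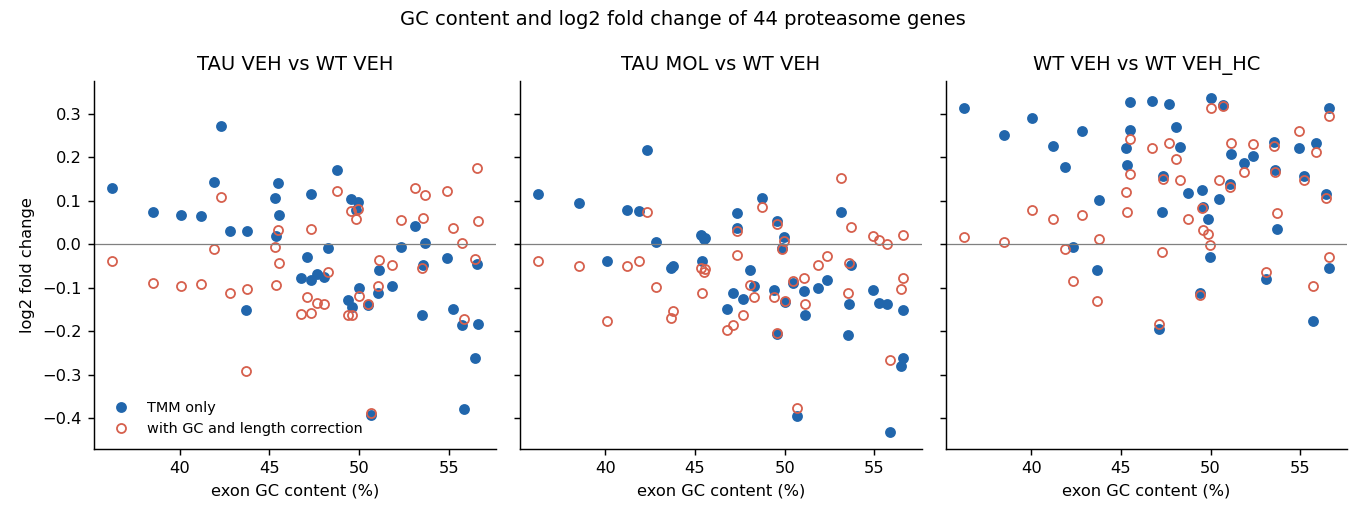
Exon GC content (%) and log2 fold change of 44 proteasome genes in 3 comparisons of the learning experiment. Filled points come from the TMM-scaled fit, open circles from the fit corrected for GC and length. Filled points fall with GC content in both comparisons of TAU with WT (Spearman's rho over these 44 genes -0.61 and -0.68) and less so for training (-0.21).

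Mice given CSP-TTK21 were compared with the same WT VEH libraries, so this comparison shares its controls with the one before. Psmb5 was the 1 member called of 46, lower, where 5.63% of all genes were called and 5.02% were called lower. It was at 88.3 and 89.3 CPM in TAU MOL, below both WT VEH libraries (106 and 134 CPM) and below all 3 home-cage libraries. The log2 fold change was -0.43 ± 0.10 (SE), with an adjusted p of 0.032 (edgeR). Without WT VEH replicate 2 it was -0.26 (adjusted p = 0.28), with the GC and length correction -0.27 (0.24), and the call was lost as well without WT VEH replicate 1 (0.063), without either TAU MOL library (0.19 and 0.16) and with library size alone (-0.31, adjusted p = 0.086).

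Psme4 was at 32.9 and 33.1 CPM in TAU MOL, above every WT library of the learning experiment. Its log2 fold change against WT VEH was 0.22 (interval 0.06 to 0.37), and it was not called (edgeR adjusted p = 0.10). Over all members tested the median was -0.06 against 0.00 for all genes, and 16 of 46 were above 0, where 50.4% of all genes were. The median turned to 0.0298 with the choroid plexus covariate and to 0.063 with library size alone, where that of all genes moved to 0.12. At an unadjusted p under 0.05, 1 member was higher and 4 lower, against 6.99% and 12.8% of all genes. Groups did not overlap for 3 members higher and 21 lower, against 25.6% and 26.9% of all genes.

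The beta ring had a median log2 fold change of -0.21 in TAU MOL, with all but Psmb11 below 0. Lower without overlap were 6 of 9 genes, against 26.9% of all genes, namely Psmb2, Psmb3, Psmb4, Psmb5, Psmb6 and Psmb10. Without Psmb11 the median was -0.21, and -0.14 with the GC and length correction, -0.13 with the choroid plexus covariate and -0.09 with library size alone. Psmb3 gave -0.40 (edgeR adjusted p = 0.12) and Psmb10 -0.28 (0.11), with the GC and length correction -0.38 (0.26) and -0.10 (0.65), while Psmb6 and Psmb7 gave -0.11 and -0.10 with intervals that held 0. The alpha ring had 0.01, the ATPases 0.00 and the non-ATPase subunits -0.04. With the GC and length correction these were -0.05 (6 of 7 alpha ring genes below 0), -0.01 and -0.04. Psme1, Psme2 and Psme3 gave -0.15, -0.13 and -0.10, and Psmf1 -0.11. Choroid plexus markers were called lower for 9 of 14 and neuron markers for 2 of 7 (summed 12937 to 13868 CPM against 17952 to 17998 CPM).

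**Figure D5:**
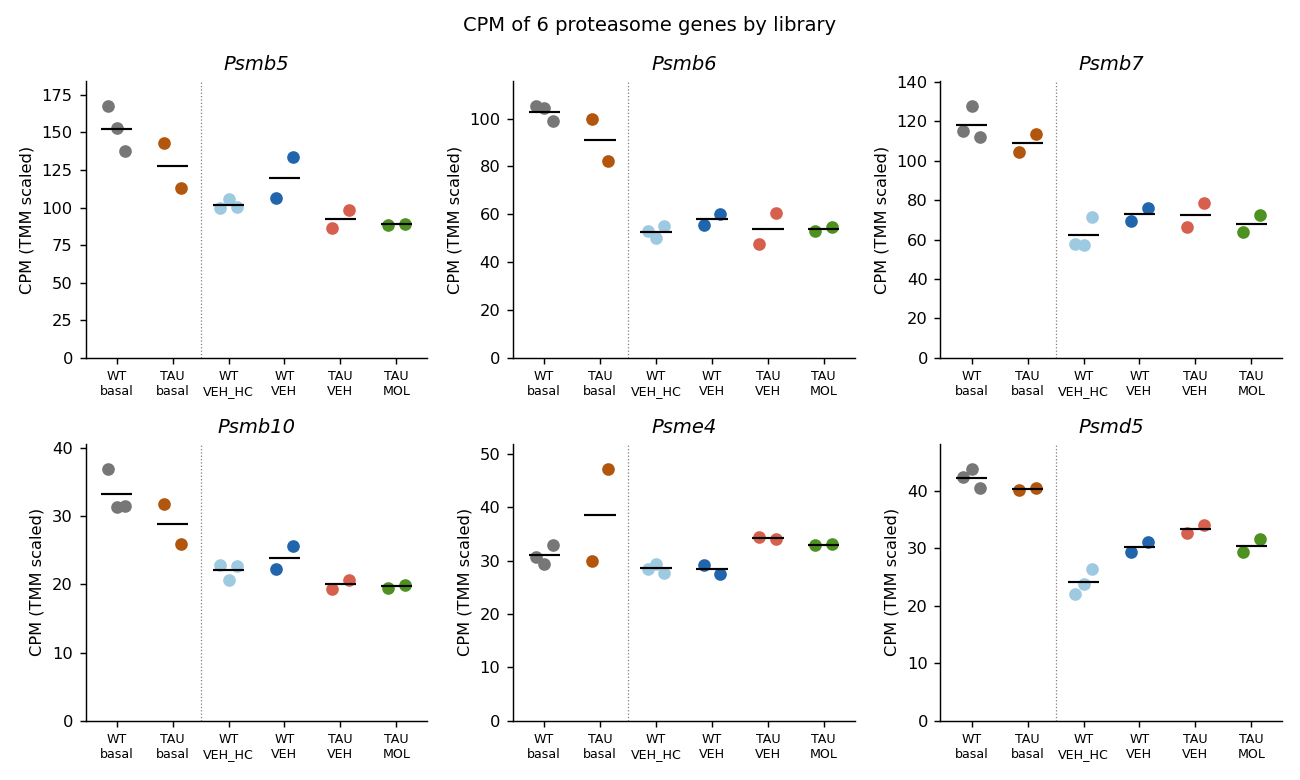
CPM of 6 proteasome genes in every library, with the mean of each group as a bar. The dotted line separates the untrained (basal) from the learning experiment, which were scaled apart. Psmb5 is at 86.1 to 98.3 CPM in the 4 trained TAU libraries and at 99.9 to 134 CPM in the 5 WT libraries beside them, while Psme4 is at 32.9 to 34.4 and 27.5 to 29.4 CPM.

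The last comparison asked what CSP-TTK21 did to the proteasome genes of trained TAU mice, with the carrier in both groups. No member was called, 0 of 46, and edgeR called 0% of all genes. At an unadjusted p under 0.05 there were 0 members and 6.33% of all genes (1064), and DESeq2 called 0 members and 54 genes, 0.208%. The median log2 fold change (TAU MOL minus TAU VEH) was -0.06 against 0.01 for all genes, and 11 of 46 members were above 0, where 52.8% of all genes were. Without TAU VEH replicate 2 the median turned to 0.014, and without TAU MOL replicate 1 it was -0.0064. With the choroid plexus covariate it was -0.13. Choroid plexus markers (0 of 14 called) summed to 718 to 785 CPM in TAU MOL and 241 to 288 CPM in TAU VEH, and their part was not tested further. Groups did not overlap for 1 member higher and 9 lower, against 21.5% and 17.4% of all genes.

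Psmb5 was at 88.3 and 89.3 CPM with and at 86.1 and 98.3 CPM without the molecule, overlapping, with a log2 fold change of -0.05 (interval -0.27 to 0.17). Psme4 had 32.9 and 33.1 CPM against 34.4 and 34.1 CPM, and a log2 fold change of -0.06 (interval -0.21 to 0.10). The smallest unadjusted p values belonged to Psmd13, Psmd11 and Psmd5. Psmd5 was at 29.3 and 31.6 CPM in TAU MOL and at 32.7 and 34.0 CPM in TAU VEH, without overlap, and its log2 fold change was -0.13 (interval -0.33 to 0.07, edgeR adjusted p = 0.91). Psmd13 and Psmd11 gave -0.10 and 0.10.

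Among the remaining named genes, Psmb6 gave 0.00, Psmb7 -0.09, Psmb10 -0.02, Psme1 -0.10, Psme2 -0.03, Psme3 0.02 and Psmf1 -0.08 on the log2 scale under CSP-TTK21. No interval of the 44 members reached below -0.41 or above 0.45, and the median half-width was 0.20. Changes of the mRNA smaller than this half-width were mostly not detectable with 2 libraries against 2, and a call, at an adjusted p, took a larger change still.

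Genes that work with the proteasome were followed as a list of 30, of which 28 were tested: the ubiquitin genes, shuttle factors, deubiquitinases, the transcription factors Nfe2l1 and Nfe2l2 that drive proteasome genes, and Psmb8. Psmb9 and Paaf1 were not analysed here. In trained against home-cage WT mice 4 of 28 were called, 3 higher and 1 lower, against 8.4% of all genes called and 5.35% called higher. Nfe2l2 was at 13.6 ± 0.97 CPM in WT VEH_HC (SD, n = 3) and at 19.4 ± 1.5 CPM in WT VEH (SD, n = 2). It rose by 0.51 on the log2 scale (edgeR adjusted p = 0.016). Rps27a, which codes for ubiquitin fused to a ribosomal protein, rose by 0.43 (0.025), and Ngly1, the glycanase that processes Nfe2l1, by 0.32 (0.049). The shuttle factor Ubqln2 fell by 0.20 on the log2 scale (0.048), which is at the limit set for a call. Settings were applied to the called genes of this list after their values had been seen. With the GC and length correction Nfe2l2 (0.42, adjusted p = 0.033) and Rps27a (0.34, 0.045) passed, and Ngly1 (0.17, 0.26) and Ubqln2 (-0.18, 0.076) did not. Without either WT VEH library none of the 4 passed. Rps27a was also lost without WT VEH_HC replicate 1 (0.064), and Ngly1 without any 1 library but WT VEH_HC replicate 3. Ubqln2 was lost whichever 1 library of the experiment was left out. Nfe2l1 itself had -0.19 and was not called (0.12). The choroid plexus markers moved with these values too, and under the choroid plexus covariate Nfe2l2 had 0.09, Rps27a -0.23, Ngly1 -0.07 and Ubqln2 -0.18, none called.

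In TAU VEH against WT VEH 1 of the 28 genes was called, the shuttle factor Ubqln4, where 14.4% of all genes were called and 10.8% called lower. It was at 208 ± 7.02 CPM in WT VEH and at 162 ± 8.26 CPM in TAU VEH (SD, n = 2), and fell by 0.36 on the log2 scale (edgeR adjusted p = 0.0032). The call held whichever 1 library was left out, and was lost with the GC and length correction (-0.16, adjusted p = 0.23) and with the choroid plexus covariate (-0.30, 0.39). Library size alone gave -0.22 (0.031). Neuron markers stood lower in the same libraries, with a median log2 fold change of -0.33 and 4 of 7 called, and their part in this value was not tested. In TAU MOL it was at 180.1 ± 0.19 CPM, with -0.21 against WT VEH (adjusted p = 0.085). The inducible subunit Psmb8 was low, at 2.26 CPM in WT VEH and 3.55 CPM in TAU VEH, with 0.64 (interval 0.15 to 1.12, edgeR adjusted p = 0.084). No gene of the list was called in TAU MOL against WT VEH, in TAU MOL against TAU VEH or in untrained mice.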

How the data were processed

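RNA-seq libraries from the dorsal hippocampus of 5 untrained and 9 learning-experiment samples were used. The authors made poly-A libraries with a kit that does not mark strand, aligned single-end reads to mm9 and counted uniquely aligned reads on Ensembl genes. The submitters' processing notes name CASAVA 1.8.2, TopHat2 2.0.10, Bowtie2 2.1.0, HTSeq 0.5.4p3 and DESeq2. The authors deposited raw counts per gene, which entered every test. They also deposited a normalized signal (counts divided by 1 factor per library), which was read only to check the columns. The tables also hold the authors' fold changes and p-values, which were not used. No column was left without a sample (0), and 138 blank lines of the learning table were dropped.

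Differences were tested with edgeR 4.0.16 in R 4.3.3 by quasi-likelihood after TMM scaling, on genes that passed filterByExpr, and p-values were Benjamini-Hochberg adjusted over all of 16324 (untrained) or 16820 (learning) genes. The untrained libraries had their own fit, and all 9 learning libraries shared another. Scripts were tested on simulated data. Lengths, GC content and positions came from NCBIM37 (mm9) with GENCODE. The GC and length correction was a loess per library with a span of 0.3. Tables and figures used Python 3.11.15, pandas 2.3.3, numpy 2.4.6, scipy 1.17.1 and matplotlib 3.10.9. Alternatives were DESeq2 1.42.0, other scalings, count filters, fits and covariates, and leaving out each library.

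Named in every comparison were Psmb5, Psmb6, Psmb7, Psmb10, Psme1 to Psme4 and Psmf1, the called members (at most 5 in each direction) and, where none was called, the 3 smallest p-values. Further names were chosen once their values were known, namely members that lay close to a call, differed between groups without overlap or set a range. The members, lists and tests were chosen with earlier results of these data known. Overlapping genes cannot be told apart without strand. No counting intervals were computed.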

Additional observations from a re-analysis of the deposited data

Results flagged for a closer look

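Psmd5, the base assembly chaperone, gave values for TAU and WT that did not overlap, on opposite sides in the untrained and the trained mice. In untrained mice both TAU libraries (40.2 and 40.4 CPM) lay below all 3 WT libraries (42.4, 43.8 and 40.5 CPM), by a gap of 0.13 CPM, with a log2 fold change of -0.069. In trained mice both TAU VEH libraries (32.7 and 34.0 CPM) lay above both WT VEH libraries (29.3 and 31.1 CPM), with a log2 fold change of 0.14. Neither comparison called the gene (edgeR adjusted p = 0.94 and 0.36), and the 95% intervals, -0.31 to 0.18 and -0.06 to 0.34, both held 0. With the GC and length correction the values were -0.092 and 0.033. Of the genes tested in both comparisons 2.59% lay apart in opposite directions in this way, as did 1 of 46 members. The difference between the experiments was not tested.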

How the results depend on the processing

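In untrained mice and in TAU MOL against TAU VEH no member was called under any of the 14 and 19 alternatives, leaving out each library included, and the median log2 fold changes moved from their values by less than the SD of the member median between replicates, 0.067 and 0.072 (leaving out 1 library, they ran from -0.090 to 0.00035 and from -0.12 to 0.014). For training, DESeq2 called 2 members (7.11% of all genes under the same setting), library size alone 5 (10.2%), a filter of at least 1 count 10 (10.4%), the choroid plexus covariate 0 (0%) and a fit on the 2 groups alone 0 (1.89%). The median was 0.081 with the GC and length correction and -0.089 with the choroid plexus covariate. Under that covariate Psmd5 had -0.0048 on the log2 scale (edgeR adjusted p = 0.999). Leaving out 1 library gave 0 to 15 calls and medians of 0.11 to 0.23. For TAU VEH against WT VEH, library size alone gave 7 calls (21.4% of all genes) and a median of 0.13, the GC and length correction 1 call (Psmd11; 3.01%), and the choroid plexus covariate 0 calls (0%) and a median of 0.17. Leaving out 1 library gave 0 to 3 calls and medians of -0.067 to 0.050. For TAU MOL against WT VEH, DESeq2, the filter of at least 1 count and the fit on 2 groups each gave 2 calls (Psmb3 and Psmb5; 5.07%, 6.13% and 9.19% of all genes), the GC and length correction 0 (0.125%) and the choroid plexus covariate 0 (0.0119%). The median was 0.063 with library size alone, where Psme4 replaced Psmb5 as the 1 called member, and 0.0298 with the choroid plexus covariate. Leaving out 1 library gave 0 to 1 calls and medians of -0.093 to -0.028. The cause of these shifts was not tested. Correlations between same-numbered libraries of different groups ran from -0.14 to 0.33. In groups of 2 libraries the deviations mirror each other, so these correlations cannot decide whether the replicate numbers pair the samples. With the replicate block, 18 members were called for training (17.8% of all genes), 3 in TAU VEH (16.6%) and 2 in TAU MOL (7.85%) against WT VEH.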
